A study of Mus musculus with 8 samples.

Results

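The genes of the interleukin 6 and interleukin 1 axes were followed through 3 models of insulin resistance in 3T3-L1 adipocytes, each with an added antioxidant. The genes were Il6, Il6ra, Il6st, Lif, Lifr, Osmr, Socs3, Stat3, Il1r1 and Il1rn, chosen by symbol from the probe annotation, and all 10 of the 10 listed were measured among the 18193 genes with a named probe set. 3T3-L1 is a mouse fibroblast line that is differentiated into fat cells in culture. Of the 8 arrays, 2 are labelled chronic insulin (CI), 3 tumour necrosis factor, a cytokine of inflammation (TNF), and 3 dexamethasone, a synthetic glucocorticoid (Dex). All 8 samples had also received the antioxidant MnTBAP for the last 6 hours. According to the paper, MnTBAP had earlier restored the response to insulin in all of these models. The cells on these arrays may therefore not have been insulin resistant, and their insulin response was not tested here. The paper also reports that the antioxidant reversed few of the expression changes seen in the models. Doses and durations of the insulin, TNF and dexamethasone treatments are not given in the sources used here, and neither untreated cells nor cells without MnTBAP were analysed here. A gene described as higher or lower is therefore so only relative to the other model. All arrays come from a single cell line, and the labels leave unsaid whether arrays of the same group stem from different cultures. The p-values thus measure the spread between these samples alone, which may be technical.

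Interleukin 6 is a secreted cytokine that binds its receptor chain, encoded by Il6ra, and this complex then recruits gp130, the signalling chain encoded by Il6st. Leukaemia inhibitory factor (Lif) and oncostatin M use the same gp130 chain, paired with the receptors encoded by Lifr and Osmr. Receptor-bound JAK kinases activate the transcription factor STAT3, and the STAT3 target Socs3 encodes an inhibitor that binds gp130 and damps the signal. Interleukin 1 signals through the receptor encoded by Il1r1, and Il1rn encodes a secreted antagonist that occupies this receptor without activating it. Adipocytes are a known source of interleukin 6 and respond to cytokines of both axes.

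Expression was measured as probe set intensity on Affymetrix mouse genome arrays and is given as log2 intensity. Median intensities were 124.7 to 131.0 per array. Arrays within a model correlated at 0.9958 to 0.9978 over probe sets (Pearson's r), those from different models at 0.9856 to 0.9911. The TNF and Dex labels were borne out by Saa3, an acute phase gene of inflammation (13.98 to 14.18 in TNF, 8.81 to 9.14 elsewhere), and by Fkbp5, a direct glucocorticoid target (12.99 to 13.14 in Dex, 10.10 to 10.49 elsewhere). No gene was read as a check of the CI label. The labels call the samples preadipocytes in one field and adipose cells in another, and the adipocyte genes Adipoq and Fabp4 lay at 14.31 to 14.45 in every array. Those values are near the top of the scale, where differences can be compressed. A gene was called higher or lower if limma's adjusted p was under 0.05 and the difference exceeded 0.5 on the log2 scale, and differences are given with the standard error (SE) of that fit. With so few arrays, groups without overlap were common, at 53.0% of all genes when TNF was compared with CI, 48.0% when Dex was, and 35.9% between TNF and Dex.

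Of the 10 genes, 5 differed between models and 5 passed the test in no comparison. The receptor chains Osmr, Lifr and Il6st were higher in TNF than in either other model. Il6 itself was lower in Dex than in either other model, and Il1r1 was higher in Dex than in CI. Against CI, TNF gave 3 genes higher and 0 lower (8.22% of all 18193 genes were called in that comparison), and Dex gave 1 higher and 2 lower (9.00% of all genes). TNF against Dex gave 4 higher and 0 lower (7.30% of all genes). The median difference of the 10 genes was 0.20 (TNF against CI), -0.02 (Dex against CI) and 0.11 (TNF against Dex), where the median of all genes was 0.03, 0.02 and 0.01.

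**Figure D1:**
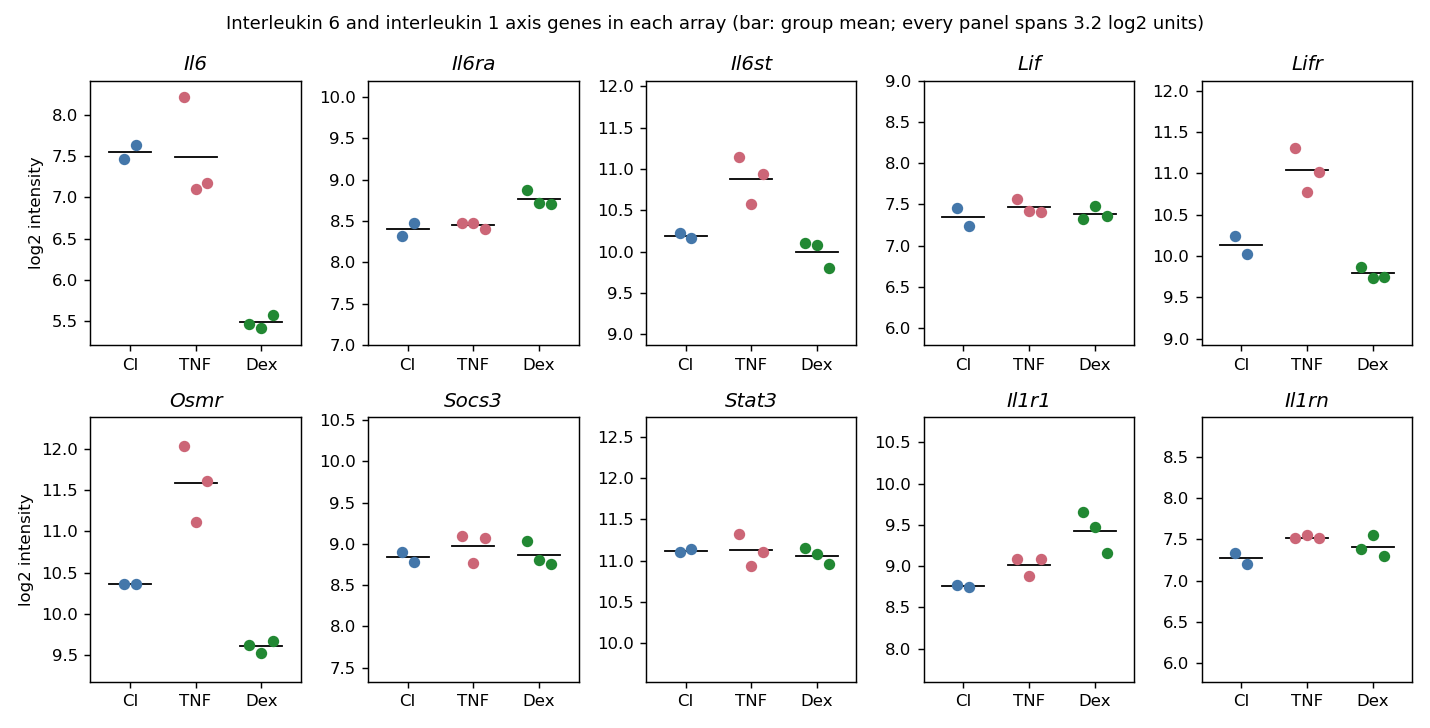
Log2 intensity (vertical axis) of the 10 genes in each of the 8 arrays, 1 point per array, coloured by model, with a bar at the group mean. Osmr, Lifr and Il6st stand highest in the 3 TNF arrays, Il6 lies at 5.42 to 5.58 in Dex, and Lif, Socs3 and Stat3 overlap between all models.

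Il6, the ligand that gives the axis its name, lay at 7.47 and 7.63 in the CI arrays, at 8.21, 7.10 and 7.18 in TNF and at 5.47, 5.42 and 5.58 in Dex. Every Dex array was lower than every other array, whereas the TNF arrays lay on either side of CI. The difference was -2.06 ± 0.25 for Dex against CI (limma adjusted p = 0.000136) and 2.0 ± 0.23 for TNF against Dex (limma adjusted p = 7.73e-05), in each case about 4-fold (4.16-fold and 4.01-fold). TNF and CI differed by -0.05 ± 0.25, with a 95% interval from -0.61 to 0.50. TNF replicate 1 set that value, since without it TNF lay below CI by -0.41 (limma adjusted p = 0.00891), still short of the 0.5 threshold. Il6 was measured by a single probe set, and 30.3% of genes had a lower mean. Background signal was not analysed here, so how far the Dex values of Il6 lie above it is unknown. With 16 added to every intensity before the logarithm, Dex against CI gave -1.73.

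The 250 bases before the RefSeq start of Il6 are shown because Il6 had the largest difference of the 10 genes in absolute size, at chr5:30012864-30013113 of GRCm38.p6 on the plus strand. Capitals mark matches to the motifs searched on both strands, which were TGANTCA for AP-1, TTGNGCAA for C/EBP, GGG and TTTCC around any 2 bases for NF-kB, TTCNNNGAA for STAT and ACANNNTGT for the glucocorticoid receptor.
Il6: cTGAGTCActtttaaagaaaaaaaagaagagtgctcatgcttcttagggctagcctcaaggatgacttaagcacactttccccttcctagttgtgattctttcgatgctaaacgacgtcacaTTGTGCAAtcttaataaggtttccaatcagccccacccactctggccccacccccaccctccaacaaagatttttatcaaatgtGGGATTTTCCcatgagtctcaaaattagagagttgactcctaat
The window held an AP-1 match at 249 to 243 bases before the start, a C/EBP match at 128 to 121 and an NF-kB match at 44 to 35. Of 32851 RefSeq promoters cut to the same length, 6.75% held the AP-1 letters, 2.61% those of C/EBP, 1.41% those of NF-kB, 7.02% those of STAT and 5.84% those of the glucocorticoid receptor. All 10 genes matched the RefSeq promoter table, with 14 entries in all, of which 5 held a match. Besides Il6 these were Lif and the first entry of Il1rn, each with an AP-1 match (TGACTCA and TGAGTCA), Socs3 with a STAT match (TTCTTAGAA), and the third entry of Il1rn with an NF-kB match (GGGTTTTTCC). A match describes the letters only and is not a measured binding site.

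Lif, the other ligand, lay at 7.46 and 7.24 in CI, at 7.56, 7.42 and 7.41 in TNF and at 7.32, 7.48 and 7.36 in Dex. The models overlapped throughout. Its differences were 0.12 ± 0.09 between TNF and CI (95% interval -0.08 to 0.32), 0.04 ± 0.09 between Dex and CI (-0.16 to 0.24) and 0.08 ± 0.08 between TNF and Dex (-0.10 to 0.26). All of these intervals lie within 0.5 of zero. Lif was dim, with a lower mean in 41.8% of genes, and how far its values lie above background is unknown.

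Osmr, the oncostatin M receptor chain, showed the widest spread between models among the receptors. Its most intense probe set lay at 10.37 and 10.36 in CI, at 12.03, 11.12 and 11.61 in TNF and at 9.62, 9.53 and 9.67 in Dex. In that probe set the models formed 3 levels without overlap. TNF exceeded CI by 1.22 ± 0.19 (2.34-fold, limma adjusted p = 0.000938) and Dex by 1.98 ± 0.17 (3.95-fold, limma adjusted p = 9.67e-06). For Dex against CI the other Osmr probe sets gave -0.27 (limma adjusted p = 0.458), with overlapping arrays, and -0.33 (limma adjusted p = 0.0572). Neither was called, with adjustment over all probe sets. In the most intense probe set Osmr was lower in Dex than in CI, by -0.76 ± 0.19 (limma adjusted p = 0.014). That last call was not firm. It did not survive the removal of CI replicate 1 (limma adjusted p = 0.0808), CI replicate 2 (0.0826) or Dex replicate 2 (0.0519), at differences of -0.76, -0.76 and -0.72, and with the mean of all 3 Osmr probe sets (-0.45).

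Lifr, which encodes the receptor for leukaemia inhibitory factor, reached 11.31, 10.78 and 11.02 in the TNF arrays. It stood at 10.24 and 10.02 in CI and at 9.87, 9.74 and 9.75 in Dex. All TNF arrays were above all others. The difference was 0.91 ± 0.13 against CI (1.88-fold, limma adjusted p = 0.000653) and 1.25 ± 0.12 against Dex (2.38-fold, limma adjusted p = 2.1e-05). Dex and CI did not overlap either, but their difference of -0.34 ± 0.13 did not pass (limma adjusted p = 0.0926). The Lifr probe set with the largest spread gave another pattern, 0.49 for TNF against CI, just under the threshold, and -0.89 for Dex against CI, which was called (limma adjusted p = 0.000224).

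Il6st, the gp130 chain that all these receptors share, lay at 10.22 and 10.16 in CI, at 11.14, 10.57 and 10.94 in TNF and at 10.10, 10.08 and 9.80 in Dex. TNF was the highest model in every array. It exceeded CI by 0.69 ± 0.15 (1.61-fold, limma adjusted p = 0.00613) and Dex by 0.89 ± 0.13 (1.85-fold, limma adjusted p = 0.000527). Leaving out CI replicate 2 ended the call against CI (0.66, limma adjusted p = 0.0598). Dex and CI differed by -0.20 ± 0.15 (95% interval -0.52 to 0.12). The Il6st promoter is shown as the counterpart of Il6, for the signalling chain that interleukin 6 shares with leukaemia inhibitory factor and oncostatin M. It lies at chr13:112463820-112464069 of GRCm38.p6 on the plus strand and has no capitals, since it held none of the motifs searched, as was also the case for the entries of Lifr, Osmr, Il6ra, Stat3 and Il1r1.
Il6st: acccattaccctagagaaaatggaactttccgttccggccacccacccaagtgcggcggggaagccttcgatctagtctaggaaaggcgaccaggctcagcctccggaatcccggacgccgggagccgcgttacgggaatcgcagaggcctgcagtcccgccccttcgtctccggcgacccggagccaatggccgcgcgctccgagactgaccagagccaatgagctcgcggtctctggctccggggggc

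In all 3 of these receptor genes, TNF replicate 1 had the highest value and TNF replicate 2 the lowest. Without TNF replicate 1 the differences from CI were 1.0 for Osmr, 0.77 for Lifr and 0.56 for Il6st, and each was still called. Values that moved with the TNF and Dex groups were also examined. Preadipocyte and fibroblast markers, of which 7 of 8 were measured, averaged 10.04 to 10.27 in the TNF arrays, 9.85 to 9.88 in CI and 9.44 to 9.48 in Dex. Against CI, Pdgfrb and Cd44 were higher in TNF and Zfp423 lower, and against Dex 4 of the 7 were higher and 0 lower (3.00% and 5.23% of all genes were higher and lower in TNF than in CI, and 4.14% and 3.16% in TNF than in Dex). In Dex, 2 of the 7 were lower than in CI, Dlk1 (-0.70 ± 0.10) and Cd44 (-0.93 ± 0.11), and 0 higher. Adipocyte markers (8 of 10 measured) averaged 11.98 to 12.02 in TNF, 12.46 to 12.56 in CI and 12.15 to 12.26 in Dex, with 5 lower and 0 higher in TNF than in CI. In Dex, 3 were lower than in CI, Pparg (-0.61 ± 0.08), Slc2a4 (-0.65 ± 0.08) and Lep (-0.89 ± 0.19), and 0 higher, where 3.33% of all genes were higher and 5.67% lower. The part of these markers in the differences of the receptors, Il6 and Il1r1 was not tested, and in bulk RNA fewer cells of a type and less RNA per cell cannot be told apart. The beta-actin 3′ minus 5′ difference, a sign of RNA quality, was 0.71 to 0.83 in TNF, 0.54 to 0.66 in CI and 0.49 to 0.75 in Dex. The same difference for Gapdh did not place TNF highest, at 0.08 to 0.14 in TNF, 0.14 to 0.16 in CI and 0.07 to 0.11 in Dex. The beta-actin difference alone served as the RNA quality covariate. With it, TNF exceeded CI by 1.13 for Osmr, 0.88 for Lifr and 0.77 for Il6st, and the calls of all 10 genes were the same as without it.

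Il6ra, the chain that binds interleukin 6, went the other way. Its most intense probe set lay at 8.32 and 8.48 in CI, at 8.48, 8.47 and 8.40 in TNF and at 8.88, 8.72 and 8.71 in Dex. Every Dex array was above every other array. The differences of 0.37 ± 0.08 for Dex against CI (limma adjusted p = 0.00828) and -0.32 ± 0.07 for TNF against Dex (limma adjusted p = 0.0103) passed the p threshold but were smaller than 0.5, so Il6ra was not called. The other Il6ra probe set had the same direction and was called, at 0.78 ± 0.16 for Dex against CI (limma adjusted p = 0.0074) and -0.97 ± 0.15 for TNF against Dex (limma adjusted p = 0.000975, both adjusted over all 45037 probe sets). In the most intense probe set, Dex against CI fell to 0.29 without CI replicate 1. TNF against Dex missed the p threshold with the RNA quality covariate (-0.22, limma adjusted p = 0.188) and without Dex replicate 1 (-0.26, limma adjusted p = 0.0518). Dex thus combined the lowest Il6 values with the highest Il6ra values, although Il6ra was not called. The difference of Il6st between Dex and CI was not called either.

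**Figure D2:**
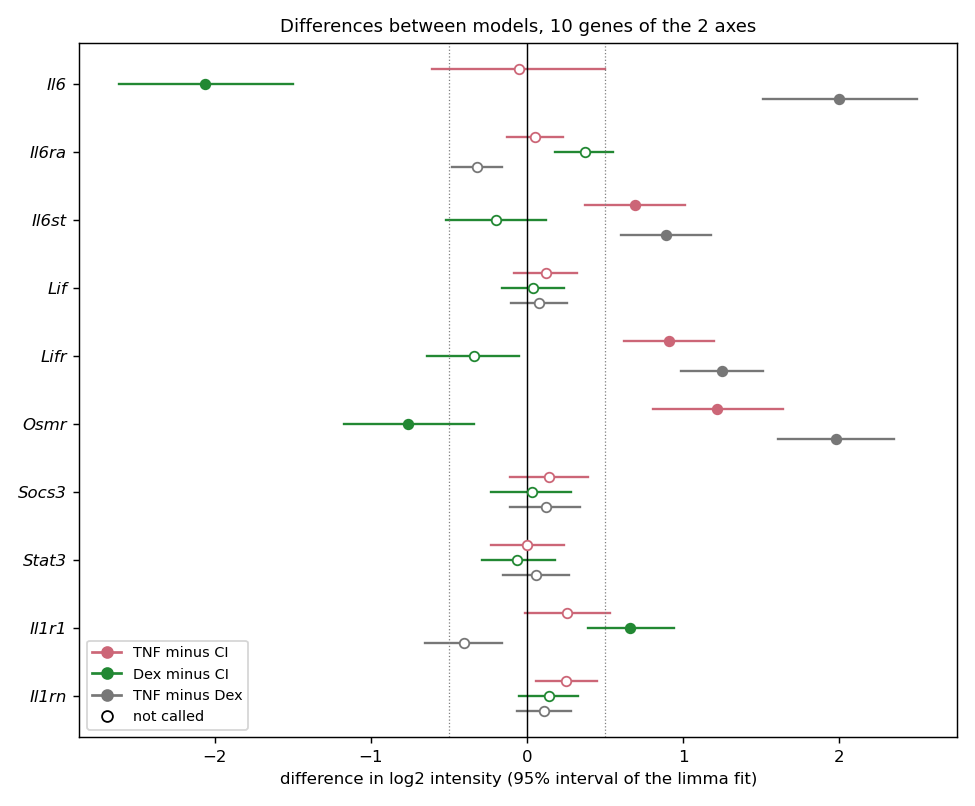
Difference in log2 intensity (horizontal axis) of the 10 genes in the 3 comparisons, 1 colour each and always the first model minus the second, with the 95% interval of the limma fit. Filled points passed the test, open points did not, and dotted lines mark the 0.5 threshold. The largest differences are -2.06 for Il6 in Dex against CI, 2.0 for Il6 and 1.98 for Osmr in TNF against Dex.

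Stat3 and Socs3 passed the test in no comparison. Stat3 lay at 11.11 and 11.14 in CI, at 11.33, 10.94 and 11.11 in TNF and at 11.15, 11.08 and 10.96 in Dex. Its differences were 0.00 ± 0.11 between TNF and CI (95% interval -0.23 to 0.24), -0.06 ± 0.11 between Dex and CI (-0.29 to 0.18) and 0.06 ± 0.10 between TNF and Dex (-0.15 to 0.27). Socs3 lay at 8.90 and 8.78 in CI, at 9.10, 8.77 and 9.07 in TNF and at 9.04, 8.80 and 8.76 in Dex. The models overlapped for both genes. Socs3 differed by 0.14 ± 0.11 between TNF and CI (95% interval -0.11 to 0.39), 0.03 ± 0.11 between Dex and CI (-0.23 to 0.28) and 0.12 ± 0.10 between TNF and Dex (-0.11 to 0.34). No probe set of Stat3 (4 in all) or Socs3 (3 in all) was called in any comparison. All of these intervals lie within 0.5 of zero. The arrays measure mRNA and do not report STAT3 phosphorylation.

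In the interleukin 1 axis, Il1r1 was the gene that differed. It lay at 8.77 and 8.75 in CI, at 9.09, 8.88 and 9.09 in TNF and at 9.65, 9.47 and 9.16 in Dex, again 3 levels without overlap. Dex exceeded CI by 0.66 ± 0.12 (1.58-fold, limma adjusted p = 0.00265). TNF lay between the other models, at 0.26 ± 0.12 above CI (limma adjusted p = 0.163) and at -0.40 ± 0.11 relative to Dex (limma adjusted p = 0.0237, under the 0.5 threshold). Dex replicate 3 was the lowest Dex array, and without it TNF against Dex was -0.54 and called (limma adjusted p = 0.00221). The other Il1r1 probe set was dim, at 3.17 to 3.57, and showed no called difference. Its mean with the main probe set brought Dex against CI down to 0.38.

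Il1rn, the receptor antagonist, lay at 7.34 and 7.20 in CI, at 7.51, 7.55 and 7.51 in TNF and at 7.38, 7.55 and 7.30 in Dex. TNF arrays were above CI without overlap, and Dex overlapped both. TNF against CI gave 0.25 ± 0.09 (95% interval 0.06 to 0.45, limma adjusted p = 0.0559), Dex against CI 0.14 ± 0.09 (-0.05 to 0.33) and TNF against Dex 0.11 ± 0.08 (-0.06 to 0.28). None of these was called. The 3 probe sets of Il1rn did not share an order, since TNF against Dex was 0.11, -0.12 and -0.27 in them.

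**Figure D3:**
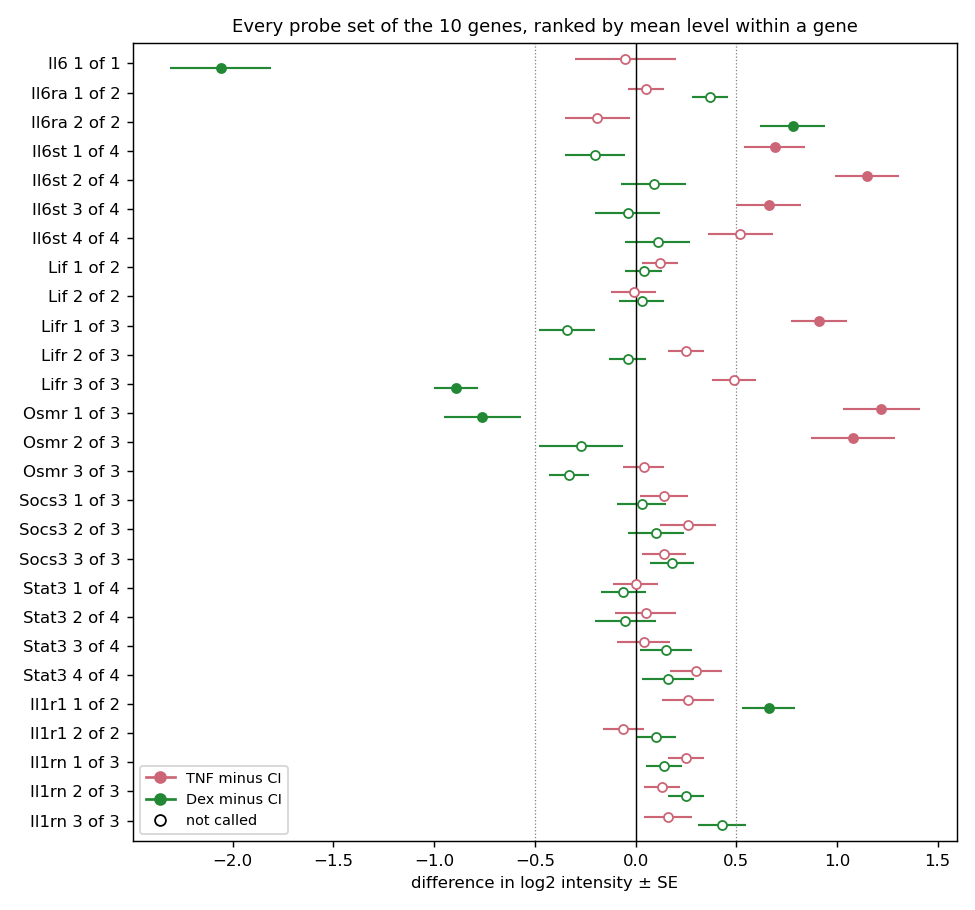
Differences in log2 intensity ± SE (horizontal axis) of every named probe set of the 10 genes for TNF minus CI and Dex minus CI, ranked by mean level within a gene, fitted over all 45037 probe sets. Filled points were called. For TNF against CI, 3 of 4 Il6st probe sets and 2 of 3 Osmr probe sets were called, and the least intense Osmr probe set was at 0.04.

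The agreement between probe sets differed by gene. The 4 Il6st probe sets gave 0.69, 1.15, 0.66 and 0.52 for TNF against CI, the last of them short of the p threshold (limma adjusted p = 0.0532). The 3 Osmr probe sets gave 1.22, 1.08 and 0.04, and the last was dim, at 5.14 to 5.73 in the arrays. The 3 Lifr probe sets gave 0.91, 0.25 and 0.49, of which 1 was called.

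From high to low, the models ranked TNF, CI, Dex for Osmr, with each step called in its most intense probe set. The step from CI to Dex was not called in the other Osmr probe sets. For Lifr and Il6st it was also TNF, CI, Dex, with the step from CI to Dex not called. For Il6 it was CI, TNF, Dex, with CI and TNF not distinguished. For Il1r1 it was Dex, TNF, CI, with neither neighbouring step called. As a description, the genes whose profile over the 8 arrays was most like each called gene were sought among the 1926 genes with an SD of at least 0.3. The 8 arrays are those of the 3 groups, so r includes the differences between models. For Osmr these were Casp4 (Pearson's r = 0.999), Ccl2 (0.993) and Sema3c (0.991). For Il6 they were Flrt3 (0.996), Sp100 (0.991) and Palld (0.990), for Lifr Gpr176 (0.992), Slit2 (0.992) and Epas1 (0.991), and for Il6st Prrx1 (0.993), Gpr176 (0.984) and Relb (0.982). For Il1r1 they were Cyp26b1 (0.973), Vdr (0.968) and Rhou (0.966).

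Other genes of the 2 pathways were taken from lists of ligands, receptors, transducers, inhibitors and targets. Of 64 such genes 57 were measured, and 18 of them were called in at least 1 comparison. TNF against CI gave 14 higher and 2 lower (median 0.12), Dex against CI 6 higher and 5 lower (median 0.02), and TNF against Dex 8 higher and 2 lower (median 0.09). The same shares over all genes were 3.00% higher and 5.23% lower, 3.33% higher and 5.67% lower, and 4.14% higher and 3.16% lower. Lists of this kind contain known inflammatory genes, so these counts describe the pathway and are not evidence about it.

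Of 6 other receptor genes of the interleukin 1 family, 2 were higher in TNF than in CI and in Dex, and the others, Il1r2 (-0.17 against CI), Il18r1 (0.03), Il18rap (0.08) and Sigirr (0.13), were called in no comparison. Il1rap, the accessory chain that Il1r1 needs to signal, lay at 8.42 and 8.31 in CI, at 10.16, 9.60 and 10.05 in TNF and at 8.96, 8.91 and 8.81 in Dex. TNF exceeded CI by 1.57 ± 0.14 (2.96-fold, limma adjusted p = 2.17e-05) and Dex by 1.04 ± 0.12. Dex exceeded CI by 0.53 ± 0.14, a call lost without CI replicate 1 (0.58, limma adjusted p = 0.0621), CI replicate 2 (0.47), Dex replicate 1 (0.49) or Dex replicate 2 (0.52, limma adjusted p = 0.0531). With the mean of all Il1rap probe sets, Dex against CI was 0.19 and TNF against Dex was 0.46, and neither was called. Il1rl2, a receptor for interleukin 36, was at 9.13, 8.83 and 9.03 in TNF, above CI (7.60 and 7.75) and Dex (8.12, 8.04 and 7.94). TNF exceeded CI by 1.32 ± 0.10 and Dex by 0.96 ± 0.09. The mean of Il1r1 was highest in Dex and that of Il1rap in TNF, but the step between TNF and Dex was not called for Il1r1 (-0.40, and -0.23 with the RNA quality covariate).

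Among the ligands, Il1a (5.51 to 5.85 over the 8 arrays), Il1b (6.26 to 6.43), Osm (6.65 to 6.89), Il11 (6.02 to 6.28) and Il18 (6.67 to 7.15) were not called in any comparison. How far these levels lie above background is unknown. Il18 passed the p threshold but not the 0.5 threshold in TNF against CI (0.31 ± 0.09, limma adjusted p = 0.029) and against Dex (0.30 ± 0.08, limma adjusted p = 0.0191), without overlap in either. Il33, an alarmin of the interleukin 1 family, was highest in TNF, 0.95 ± 0.12 above CI and 1.43 ± 0.11 above Dex, at levels of 5.83 to 6.06 in TNF, 4.94 to 5.0 in CI and 4.26 to 4.74 in Dex, near the low end of the scale. Clcf1, a ligand of the interleukin 6 family, exceeded its CI level by 0.87 ± 0.11 in Dex and by 0.53 ± 0.11 in TNF. The TNF call ended without CI replicate 2 (0.51, limma adjusted p = 0.0577) or TNF replicate 1 (0.49), with the mean of its probe sets (0.21) and with the RNA quality covariate (0.33).

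Transducers and inhibitors moved in different directions. The kinase gene Jak2 lay at 9.51 and 9.56 in CI, at 10.73, 10.10 and 10.50 in TNF and at 9.70, 9.71 and 9.67 in Dex, higher in TNF by 0.90 ± 0.14 than in CI and by 0.75 ± 0.13 than in Dex. The adaptor gene Grb2 was lower than in CI in both TNF (-0.66 ± 0.11) and Dex (-0.89 ± 0.11), though not with the mean of its probe sets (-0.34 and -0.35). Socs2 was higher than in CI in Dex (0.92 ± 0.16) and in TNF (0.62 ± 0.16). With the mean of its probe sets neither Socs2 call held (0.49 and 0.32), and the TNF call was lost without CI replicate 1 (0.67), CI replicate 2 (0.57), TNF replicate 1 (0.47) or TNF replicate 3 (0.59). Cish, a related inhibitor, and Adam10, a protease that sheds receptors, were higher in TNF than in CI, at 0.52 ± 0.13 and 0.53 ± 0.10. Both calls were close to the threshold. That of Cish was lost without CI replicate 2 (0.43) or TNF replicate 3 (0.45), and that of Adam10 without CI replicate 1 (0.50) or TNF replicate 3 (0.45). With the RNA quality covariate Cish gave 0.31 and Adam10 gave 0.41, neither of them called. Both calls were also lost with the replicate number as a block in the fit (0.43 and 0.46). That of Adam10 was lost with the mean of its probe sets (0.32). The interleukin 1 adaptor gene Myd88 was lower in Dex than in CI by -0.53 ± 0.08, which was -0.49 without CI replicate 1. Tab3, an activator of the kinase TAK1, was lower in TNF than in CI (-0.63 ± 0.09) and than in Dex (-0.54 ± 0.08, but -0.46 without TNF replicate 2).

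Of 11 genes known as STAT3 targets besides Socs3, 5 were higher and 0 lower in TNF than in CI, where 3.00% of all genes were higher and 5.23% lower. In Dex 3 were higher and 2 lower than in CI, where 3.33% of all genes were higher and 5.67% lower. Hp, which encodes haptoglobin, was higher than in CI by 1.64 ± 0.07 in TNF and 1.66 ± 0.07 in Dex. Its values of 14.23 to 14.37 in those arrays lay near the top of the scale, where differences can be compressed. Timp1, a protease inhibitor, and Lrg1, a secreted glycoprotein, were higher in TNF (1.43 ± 0.09 and 0.84 ± 0.11) and lower in Dex (-0.63 ± 0.09 and -0.77 ± 0.11) than in CI. The lipocalin gene Lcn2 was higher in TNF, 2.17 ± 0.26 above CI and 1.85 ± 0.24 above Dex. Cebpd, a transcription factor of early adipogenesis, was 5.26-fold higher in Dex than in CI (2.40 ± 0.17, limma adjusted p = 1.84e-06). It was higher in TNF by 0.64 ± 0.17, a call lost without CI replicate 1 (0.51, limma adjusted p = 0.136) or TNF replicate 1 (0.46) and with the mean of its probe sets (0.33). Dex exceeded TNF as well (-1.76 ± 0.15 for TNF against Dex). Pim1, a kinase gene, exceeded its CI level in Dex by 0.59 ± 0.11, but by 0.47 without CI replicate 1 and 0.37 with the mean of its probe sets. Casp4, an inflammatory caspase that processes cytokines of the interleukin 1 family indirectly, was highest in TNF, 0.96 ± 0.15 above CI and 1.55 ± 0.14 above Dex. The difference of Dex from CI was -0.59 ± 0.15, a call lost without CI replicate 1 (limma adjusted p = 0.0799), CI replicate 2 (0.1) or Dex replicate 2 (0.0588). The 39 other pathway genes passed the test in no comparison. The farthest from zero among them were Junb in Dex against CI (0.61) and Myc in TNF against Dex (-0.58). Not all of these results were firm, since Junb, Myc, Mcl1, Irak2, Peli1, Ptpn2 and Map3k7 were called under at least 1 alternative setting. For TNF against Dex, Mcl1 gave -0.61 with the mean of its probe sets and Myc -0.87 without TNF replicate 1.

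**Figure D4:**
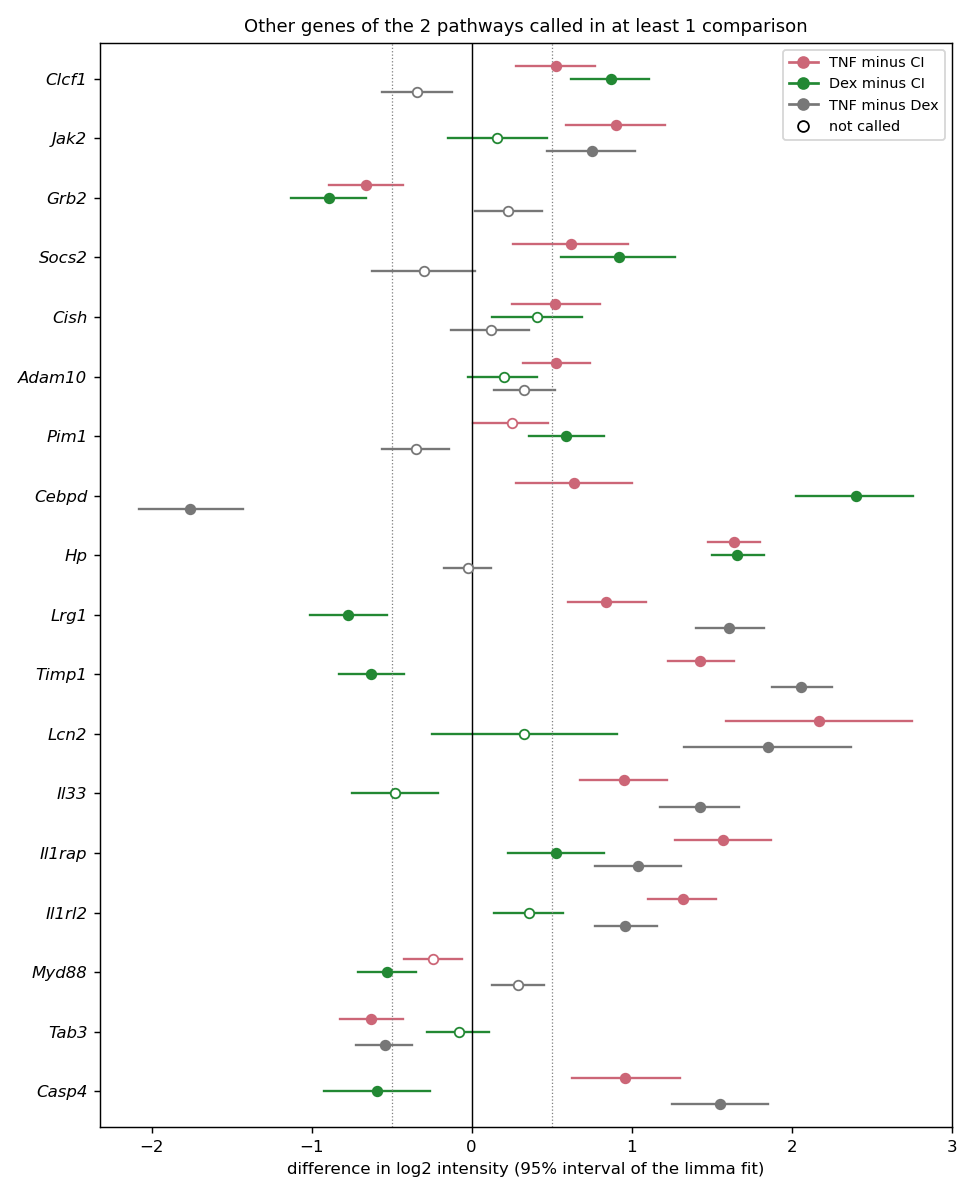
Difference in log2 intensity (horizontal axis) of the 18 other pathway genes called in at least 1 comparison, with 95% intervals of the limma fit and dotted lines at the 0.5 threshold. Filled points were called. Il1rap, Il1rl2, Jak2, Timp1 and Lcn2 are higher in TNF, and Cebpd is highest in Dex.

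Macrophages and other leukocytes can be a source of some cytokine transcripts in fat tissue, so their markers were read as well. Of 10 markers measured of 11 listed, Cd14 and Lyz2 were higher in TNF than in CI (1.44 ± 0.13 and 0.55 ± 0.07), and Cd14 also in Dex (0.98 ± 0.13). Lyz2 was higher in TNF than in Dex by 0.95 ± 0.06 (limma adjusted p = 1.24e-06). Csf1r differed by 0.40 ± 0.07 between TNF and CI (limma adjusted p = 0.00228), under the 0.5 threshold. The list averaged 7.32 to 7.34 in CI, 7.56 to 7.64 in TNF and 7.44 to 7.48 in Dex. The leukocyte-defining genes Ptprc, Itgam and Adgre1 were not called in any comparison. Ptprc lay at 4.46 to 4.77 and Itgam at 5.51 to 5.92, whereas the T cell gene Cd3e read 8.14 to 8.48 in these cultures, so a probe set's level alone does not show expression. The part of leukocyte RNA in the differences above was not tested.

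**Figure D5:**
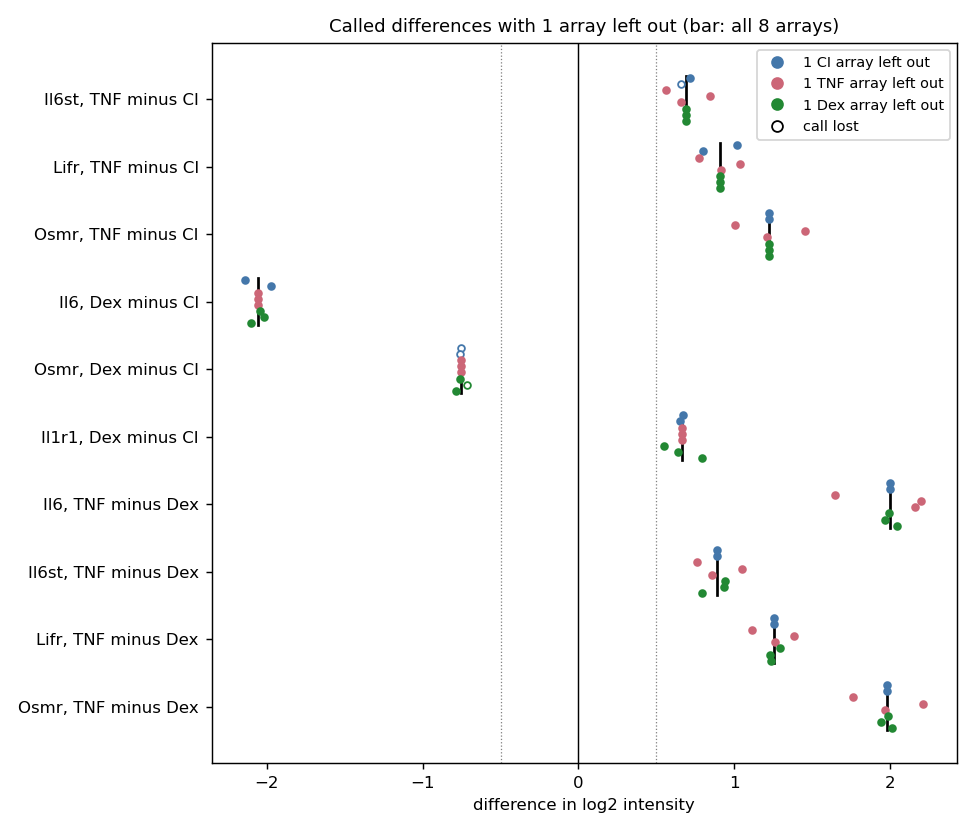
Called differences of the 10 genes (horizontal axis, log2 intensity) with each of the 8 arrays left out in turn. The bar is the value with all 8 arrays, each point is a fit without 1 array, coloured by the group it came from, and open points mark a lost call. The calls lost are Il6st in TNF against CI without CI replicate 2, and Osmr in Dex against CI without CI replicate 1, CI replicate 2 or Dex replicate 2.

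Across these fits Il6 in Dex against CI ran from -2.14 to -1.97, and Osmr in TNF against CI from 1.0 to 1.46. The differences of Il6, Osmr, Lifr and Il6st between TNF and Dex were called in every fit with 1 array left out.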

How the data were processed

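The authors hybridised labelled cRNA of the 8 samples to Affymetrix arrays and deposited probe set intensities on a linear scale (6.14 to 24273.6). The study's methods name RMA in affyPLM for this array type, but not whether the deposited intensities are those values without the logarithm. The test had been planned for log2 values, so log2 was taken first, with no pseudocount. The 64 control probe sets of 45101 were left out. Names came from GEO's platform annotation, in which 34958 probe sets had 1 symbol, 932 several and 9211 none, and each gene was read from its single-symbol probe set with the highest mean.

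A single limma model (3.58.1, R 4.3.3) held all 3 groups, with lmFit, eBayes and a two-sided moderated test, adjusted by Benjamini-Hochberg over 18193 genes. The fit was tested on simulated data. The 10 genes and the pathway and marker lists were chosen with earlier results of these data known. The other genes named by rule were the pathway genes that were called, the ligands Osm, Il11, Il1a, Il1b, Il18 and Il33, the genes used to check the labels, and the 3 most similar genes per called gene. Marker genes, the uncalled receptors of the interleukin 1 family and the pathway genes called only under alternative settings, such as Junb and Myc, were named after their values were seen. Listed genes without a named probe set were not analysed here. The number of arrays limits the precision. The alternatives are given in the closing section. Promoter sequences are RefSeq's (GRCm38.p6). Figures were drawn with Python 3.11.15.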

Additional observations from a re-analysis of the deposited data

How the results depend on the processing

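Of 600 values of the 10 genes under alternative settings, 564 kept their direction and their side of the threshold, 7 lost a call, 6 gained one and 23 changed sign, all 23 in differences that were not called. Many of the 564 could not change direction, since some settings alter the test but not the difference. These were omission of dim genes, testing over all probe sets, dropping the uninvolved model or 1 of its arrays, and another variance estimate. Il6st in TNF against CI stayed at 0.69 in each of them. The 564 therefore overstate how far direction was tested. Raising the minimum difference to 1 left 1 of the 10 genes called for TNF against CI and 1 for Dex against CI, and 5 and 2 of the other pathway genes. With no minimum difference, 18 pathway genes were called between Dex and CI and 21 between TNF and Dex. Reading each gene from its most variable probe set gave 5 of the 10 genes for Dex against CI. With 1 array left out, pathway calls for Dex against CI ran from 7, without CI replicate 1, to 12. Whether the replicate numbers pair the arrays could not be settled. Deviations of same-numbered arrays from their group mean correlated at -0.09 to 0.33, over 0.1 in 2 of 7 pairs. The 2 CI arrays deviate from their mean by mirror images, so pairs with CI say little. The replicate block gave 3, 3 and 4 of the 10 genes, the same genes as without it, and 13, 11 and 11 pathway genes.

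The changes of sign were small. For TNF against CI, Il6 was 0.0040 with the replicate block and -0.41 to 0.14 with 1 array left out, Il6ra -0.069 with the mean and -0.19 with the most variable probe set and -0.032 to 0.13 with 1 array left out, Lif -0.0080 with the most variable probe set, and Stat3 -0.0085 with median centring, -0.017 with array weights and -0.096 to 0.099 with 1 array left out. For Dex against CI, Il6st was 0.094 with the most variable probe set, Stat3 0.052 with the mean and 0.16 with the most variable probe set, Lif -0.069 to 0.15 and Socs3 -0.062 to 0.085 with 1 array left out. For TNF against Dex, Lif was -0.034 with the most variable probe set, Il1rn -0.093 with the mean and -0.27 with the most variable one, and Stat3 -0.038 to 0.16 with 1 array left out. The cause was not tested. Signal over background was not analysed here, which limits dim genes such as Il6, Lif, Il1rn, Il33, Il1a, Il1b, Osm, Il11 and Il18.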
